A study of Mus musculus with 18 samples.

Results

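The 10 genes described here are markers by which fibroblasts and their progenitors are recognised: *Pdgfra*, *Pdgfrb*, *Thy1*, *Ly6a*, *Cd34*, *Pi16*, *Dpt*, *Dpp4*, *Col15a1* and *S100a4*. They were taken by symbol and matched to 10 of the 38924 Ensembl genes in the table, 1 row for each symbol, and all 10 had enough counts to be tested. RNA was sequenced from mouse fibroblasts of heart (HF), kidney (KF) and tail (TF) in 2 states, with 3 libraries in each of 6 groups and 18 in all. Per the labels, cells came from adult 10-week-old male Rosa mT/mG mice on a C57BL/6 background, which carry a membrane-bound TdTomato reporter in all cells, and had grown in culture for 10 days. In the transplanted groups (HFs, KFs, TFs) they were then placed on gelatin foam beneath the capsule of the kidney in C57BL6/J recipients, syngeneic and aged 10 to 11 weeks and sorted after 3 days as live CD45-;TdTomato+ cells. In the cultured groups (HFc, KFc, TFc) the cells left over were replated and kept for 3 further days in culture. All groups, controls included, had thus been cultured for the first 10 days, the controls for 3 days longer. Every transplanted group lay in the kidney whatever organ it came from. The study's methods describe the sort at harvest for the transplanted groups and none for the controls, so its effect cannot be told apart from that of transplantation. The study calls the libraries of a group biological replicates, and which donor each came from is not given in the sources used here, so p-values measure the spread between these libraries.

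Fibroblasts are the matrix-producing cells of connective tissue and have no marker that is theirs alone. *Pdgfra* and *Pdgfrb* encode the alpha and beta receptors for platelet-derived growth factors, of which the beta receptor is also strong on pericytes and vascular smooth muscle. *Ly6a* (Sca-1), *Cd34*, *Pi16* and *Dpp4* (CD26) mark fibroblasts of the adventitia and fascia that behave as progenitors, *Dpt* is widely shared among resting fibroblasts of many organs, and *Col15a1* marks fibroblasts of the parenchyma next to basement membranes. *Thy1* (CD90) is used to sort fibroblasts, and *S100a4*, once called fibroblast-specific protein, is also made by leukocytes.

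Library totals lay between 17927838 and 32245168 counts, and the 3 counts taken as the floor of detection corresponded to 0.093 to 0.167 CPM (counts scaled to library size after edgeR's TMM normalisation). Fibroblast markers (*Col1a1*, *Col1a2*, *Col3a1*, *Dcn*, *Lum*, *Ddr2*) summed to between 12300 and 122000 CPM in all libraries. Of markers of other cells, *Krt5*, *Krt14* and *Krt15* were at 0 in HFs and TFc, *Sox10* was at 0 in every group but KFs, and *Cd3e* was at 0 in the cultured groups and in HFs. In bulk libraries fewer cells of a type and less RNA per cell cannot be told apart. The variation between replicates was wider after transplantation, with a coefficient of biological variation of 0.0728, 0.0799 and 0.0814 in HFc, KFc and TFc against 0.247, 0.454 and 0.165 in HFs, KFs and TFs. The library labelled KFs replicate 3 stood apart. Its 4 Y-linked genes summed to 0.722 CPM and its *Xist* level was 1490 CPM, against 175 to 230 CPM and at most 0.404 CPM in the other 17 libraries, which goes against the male donors of the labels. Its fibroblast markers summed to 17700 CPM, against 92400 and 68600 CPM in the other KFs libraries, and its leukocyte markers to 12.6 CPM against 145 and 127 CPM. Its markers of kidney origin summed to 175 CPM, against at most 9.22 CPM in the other KFs libraries and 33.1 to 36.4 CPM in KFc. *Dsp*, a desmosome gene of epithelia, was at 187 CPM there, against 12.9 to 14.9 CPM in KFc and 83.6 to 87.7 CPM in TFc. It was kept under its label, so means and folds of KFs rest in part on it, and the KFs values of the 10 markers and, where stated, of the lists are also given without it. HFs replicate 2 held 1190 CPM of 10 proximal tubule markers, against 61.8 to 333 CPM in the other transplanted libraries.

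After transplantation the markers shifted in opposite directions. *Pdgfra*, *Dpt*, *Dpp4* and *Col15a1* passed the threshold upward and *S100a4* downward in the libraries of all 3 organs, whereas *Pdgfrb* and *Cd34* passed it in none. The calls of *Dpp4*, which was near the floor, were lost in each organ when certain single libraries were left out. So was the call of *Pdgfra* in kidney cells. *Pi16* rose in heart and tail cells, and *Ly6a* rose and *Thy1* fell in heart cells. The threshold was an adjusted p of 0.05 (edgeR's quasi-likelihood test, Benjamini-Hochberg over the 16577 genes tested) together with a log2 fold change above 1 or below -1. In HFs relative to HFc, 6 markers were higher and 2 lower, where 18.3% and 9.33% of all genes tested were called in these directions (27.7% in all). In KFs relative to KFc, 4 were higher and 1 lower, against 14.7% and 7.99% of all genes (22.6% in all). The same counts were found without KFs replicate 3, where 23.2% of all genes were called. In TFs relative to TFc, 5 were higher and 1 lower, against 11% and 5.53% (16.5% in all). Over the 10 genes the log2 fold changes had a median of 1.84, 0.16 and 0.97 in heart, kidney and tail, and over all genes of 0.05, 0.09 and 0.

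**Figure D1:**
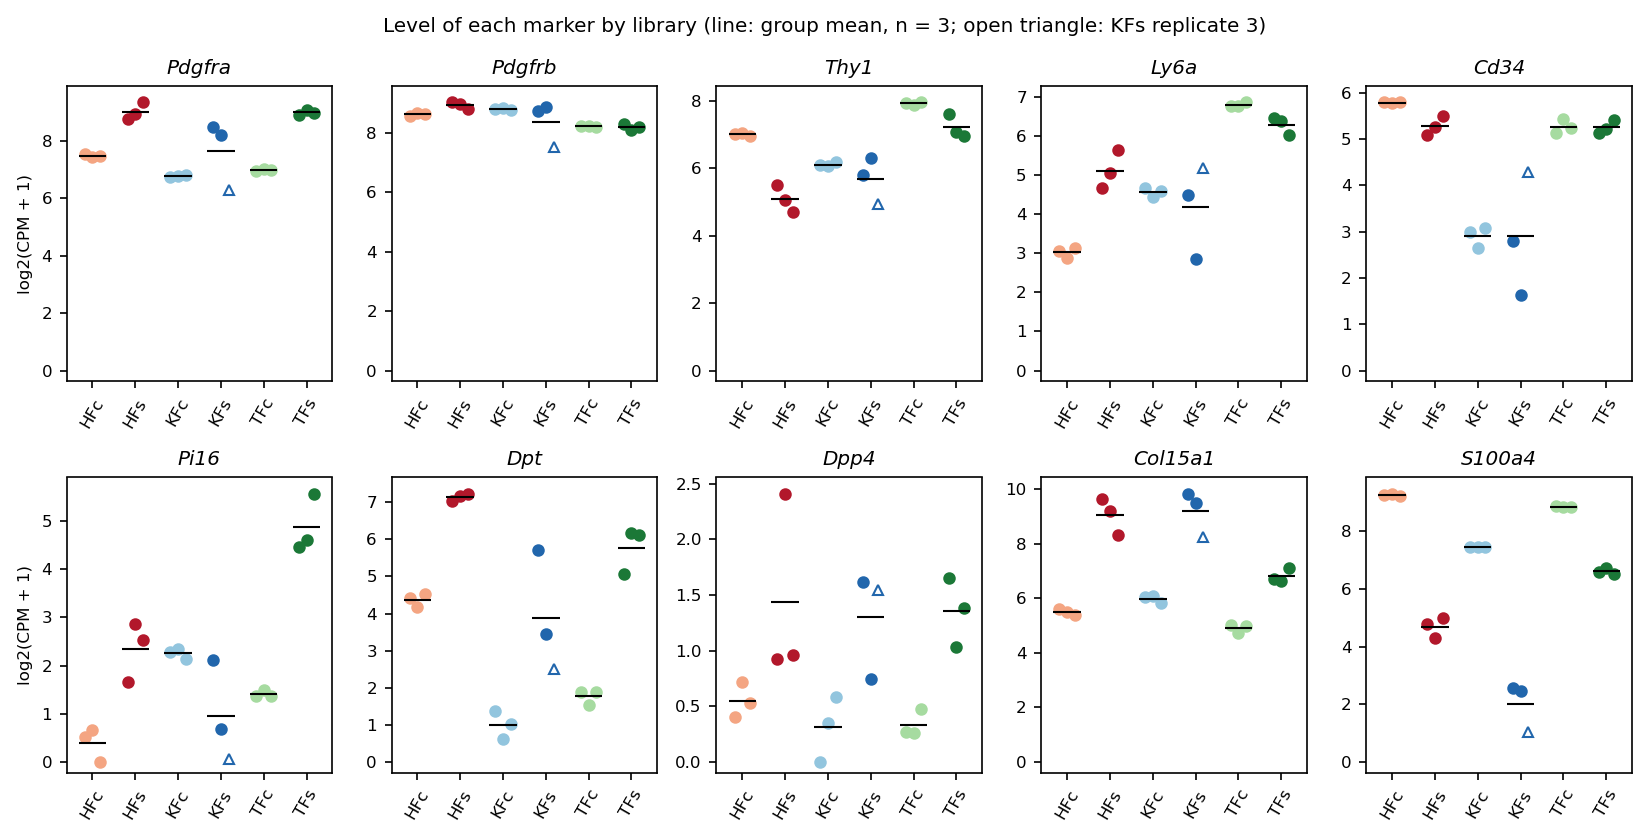
Level of each of the 10 markers in the 18 libraries as log2(CPM + 1), 1 panel for each gene, with a point for each library, a line at the mean of the 3 libraries of a group, and an open triangle for KFs replicate 3. In the *S100a4* panel the transplanted libraries lie at 1.04 to 104 CPM and the cultured ones at 172 to 626 CPM, and in the *Cd34* panel the KFc and KFs libraries lie below those of the other organs.

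**Figure D2:**
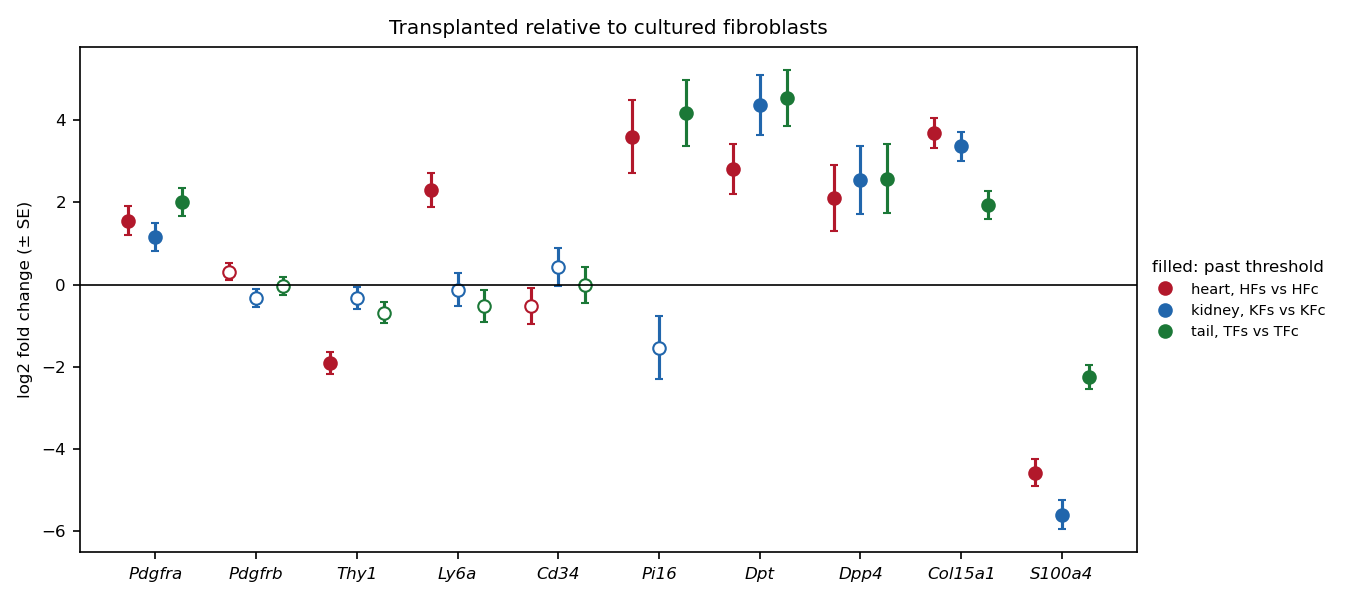
Log2 fold change of each marker in transplanted relative to cultured cells of heart, kidney and tail, with bars of 1 standard error (3 against 3 libraries) and filled points past the threshold. *Dpt* and *Col15a1* are above 0 and *S100a4* is below 0 in all 3 organs, while the points of *Pdgfrb* and *Cd34* are open.

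Sequences upstream of the 5 genes that passed the threshold in all 3 organs are shown, which did not all change in the same direction. Among them the calls of *Dpp4*, and of *Pdgfra* in kidney cells, depended on single libraries. The share of all genes that changed in all 3 organs was not counted, so this does not set the 5 apart from other genes. The sequences were taken from RefSeq (GRCm38.p6), which held an entry for 7 of the 10 markers. They run from 250 bases before to 50 bases after the start used there, 5′ to 3′ on the strand of the gene. For *Col15a1*, *Pdgfra* and *Dpt* that start differs from the GENCODE position given below. The *Col15a1* window ends before its GENCODE start at 47208161. Capitals mark matches on either strand to the TATA box (TATAAA), the CCAAT box (CCAAT), the GC box (GGGCGG) and the AP-1 site (TGACTCA), and no match overlapped another.
S100a4, chr3:90603520-90603819, strand +: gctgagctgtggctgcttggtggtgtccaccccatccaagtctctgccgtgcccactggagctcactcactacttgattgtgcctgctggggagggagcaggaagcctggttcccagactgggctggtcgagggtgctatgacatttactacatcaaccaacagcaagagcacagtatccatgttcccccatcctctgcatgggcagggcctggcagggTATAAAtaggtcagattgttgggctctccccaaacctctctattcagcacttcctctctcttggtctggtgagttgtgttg
Col15a1, chr4:47207762-47208061, strand +: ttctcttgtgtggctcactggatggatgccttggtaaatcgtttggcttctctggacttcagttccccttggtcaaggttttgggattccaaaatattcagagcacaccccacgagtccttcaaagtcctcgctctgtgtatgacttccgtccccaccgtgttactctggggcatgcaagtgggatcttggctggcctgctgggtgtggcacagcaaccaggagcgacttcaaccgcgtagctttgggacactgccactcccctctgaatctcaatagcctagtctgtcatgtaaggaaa
Dpt, chr1:164796413-164796712, strand +: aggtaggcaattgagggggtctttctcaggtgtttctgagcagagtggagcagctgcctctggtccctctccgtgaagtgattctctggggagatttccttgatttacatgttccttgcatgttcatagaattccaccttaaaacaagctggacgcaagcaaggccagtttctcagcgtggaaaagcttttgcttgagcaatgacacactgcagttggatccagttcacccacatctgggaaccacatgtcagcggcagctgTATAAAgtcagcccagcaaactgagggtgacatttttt
Pdgfra, chr5:75152001-75152300, strand +: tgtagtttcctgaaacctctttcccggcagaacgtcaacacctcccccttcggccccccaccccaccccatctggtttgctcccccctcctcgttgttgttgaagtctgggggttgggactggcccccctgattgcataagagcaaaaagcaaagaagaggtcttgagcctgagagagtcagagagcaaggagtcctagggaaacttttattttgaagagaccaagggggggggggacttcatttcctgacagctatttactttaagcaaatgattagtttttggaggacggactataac
Dpp4, chr2:62412182-62412481, strand -: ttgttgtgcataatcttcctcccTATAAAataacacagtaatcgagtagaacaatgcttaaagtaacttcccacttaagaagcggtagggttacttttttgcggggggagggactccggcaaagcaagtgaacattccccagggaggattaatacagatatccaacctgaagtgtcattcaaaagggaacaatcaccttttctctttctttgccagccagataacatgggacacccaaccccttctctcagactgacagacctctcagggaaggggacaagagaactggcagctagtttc
The TATA box letters begin 31 bases before the RefSeq start of *S100a4*, 12 bases after that of *Dpt* and 227 bases before that of *Dpp4*. They occurred in 13.6% of 32544 promoter windows of this length, and the CCAAT, GC box and AP-1 letters in 37.4%, 35.9% and 5.19%. None of the 4 was found in the windows of *Pdgfra* and *Col15a1*, which says only that these letters are not there. The G and C content of the 5 windows was 51% in *Pdgfra*, 48.7% in *Dpt*, 45.3% in *Dpp4*, 52.3% in *Col15a1* and 55.3% in *S100a4*, with a median of 53% over all windows.

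*S100a4* (ENSMUSG00000001020; chromosome 3, 90603771 to 90606045 on GRCm38), a small calcium-binding protein of the cytoskeleton, had the largest change of the 10 in heart and kidney cells. Its level was 600, 626 and 594 CPM in HFc and 26.3, 18.7 and 30.8 CPM in HFs. In KFc it was 172, 172 and 173 CPM and in KFs 4.97, 4.55 and 1.04 CPM, which for KFs replicate 3 rests on 26 counts. In TFc it was 462, 456 and 455 CPM and in TFs 95.3, 104 and 90.3 CPM. No transplanted library overlapped with a cultured one of any organ. The fold was 24.0 lower in HFs (log2 change of -4.58, SE 0.331, adjusted p = 3.76e-08), 48.6 lower in KFs (-5.60, SE 0.357, adjusted p = 1.72e-08; -5.22 without KFs replicate 3) and 4.73 lower in TFs (-2.24, SE 0.297, adjusted p = 3.35e-05). The 6 groups were apart from each neighbour in order of level, HFc, TFc, KFc, TFs, HFs and KFs. The fall was larger in heart than in tail cells (response difference -2.34, SE 0.410, adjusted p = 0.000913) and larger in kidney than in tail cells (response difference -3.36, SE 0.430, adjusted p = 0.000193; -2.96 without KFs replicate 3), whereas the heart response was less negative than the kidney response by 1.02 (SE 0.425, adjusted p = 0.0915), and this difference passed the threshold without KFs replicate 3 (0.66, adjusted p = 0.0146) or replicate 1 (1.32, adjusted p = 0.0306). In GENCODE release 21, 44.8% of the 75-base stretches of *S100a4* transcripts are shared with *Gm42674*, a gene on the same strand that has no row in the table, so reads were not divided with it there.

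Other S100A genes, which encode small calcium-binding proteins of the same family and lie mostly in the same cluster on chromosome 3, were lower in several cases. Of 7 tested besides *S100a4*, 6 fell in HFs, 3 in KFs and 3 in TFs and none rose, and the medians were -2.02, -0.96 and -1.10. *S100a6* fell by 2.90, 2.58 and 1.10 on the log2 scale in heart, kidney and tail cells (SE 0.126, 0.125 and 0.119, adjusted p = 3.87e-10, 9.79e-10 and 4.85e-06), and its level went from 967 to 1030 CPM in HFc to 125 to 147 CPM in HFs. *S100a13* fell by 2.02, 1.73 and 1.21 (adjusted p = 9.26e-06, 5.42e-05 and 0.00139). *S100a10* fell by 2.42 in HFs (adjusted p = 4.57e-10) but was at -0.95 in KFs and -0.21 in TFs. *S100a3* was at 0 in all HFs and KFs libraries and at most 1.23 CPM elsewhere, at least 6.9-fold lower in HFs than in HFc and at least 3.14-fold lower in KFs than in KFc against a floor of 3 counts for each library. With KFs replicate 3 left out, *S100a6* was at -2.47 and *S100a13* at -1.44 in KFs, *S100a10* passed the threshold there (-1.05, adjusted p = 1.36e-06), and 4 of the then 9 tested genes were lower and 2 higher (*S100a8* and *S100a9*, both also made by leukocytes and too low to be tested with it). Leukocyte markers, listed because *S100a4* is also a leukocyte gene, summed to 80.7 to 93.5 CPM in HFc and 86.4 to 162 CPM in HFs. The sums were 381 to 399 CPM in KFc and 12.6 to 145 CPM in KFs, and 167 to 195 CPM in TFc and 41.2 to 51.6 CPM in TFs. A CD45- sort at harvest is described for the transplanted groups only. The part of leukocyte RNA or of the sort in the fall of *S100a4* was not tested.

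**Figure D3:**
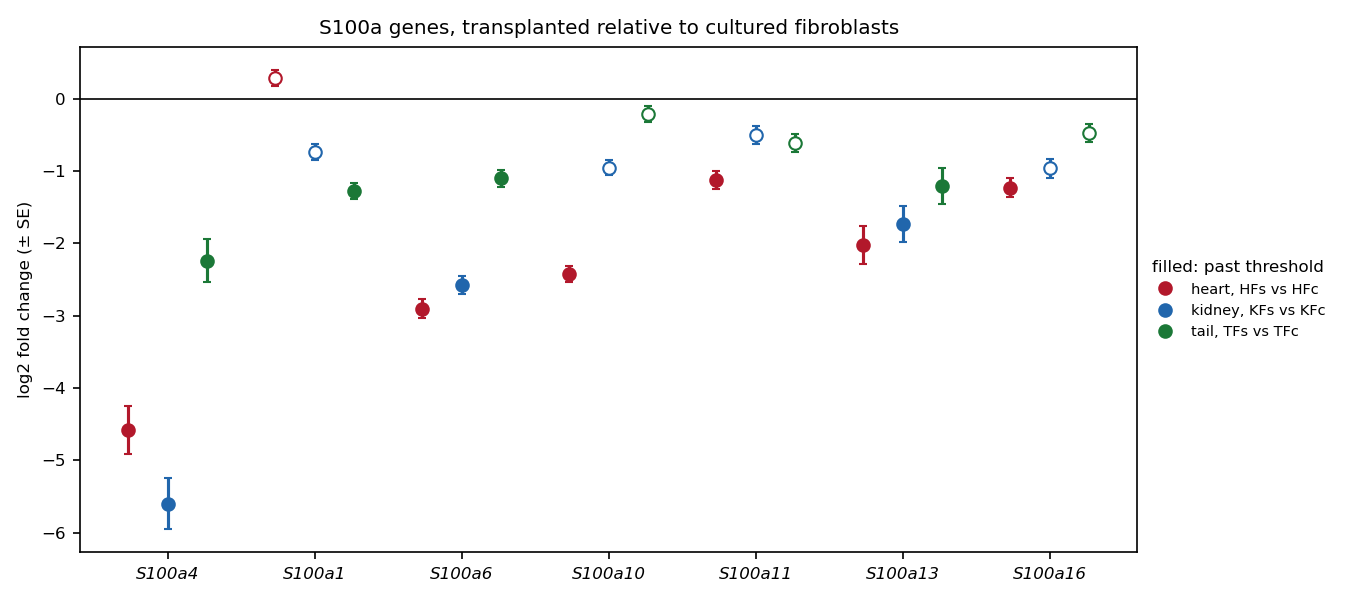
Log2 fold change of *S100a4* and 6 other S100A genes in transplanted relative to cultured cells, with bars of 1 standard error (3 against 3 libraries) and filled points past the threshold. *S100a4* has the lowest point of the 7 genes drawn in each organ, *S100a3* (at 0 in HFs and KFs) is not drawn, and *S100a1* is above 0 in heart and below 0 in tail cells.

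*Col15a1* (ENSMUSG00000028339; chromosome 4, 47208161 to 47313167), the chain of collagen XV that lies beside basement membranes, was 47.7, 44.3 and 40.7 CPM in HFc and 801, 590 and 321 CPM in HFs. Kidney cells had 64.2, 67.1 and 56.2 CPM in KFc and 909, 725 and 300 CPM in KFs. In tail cells it was 31.1, 25.7 and 30.6 CPM in TFc and 103, 97.5 and 136 CPM in TFs, so the lowest HFs or KFs library lay above the highest TFs library. The rise was 12.9-fold in HFs (log2 change of 3.69, SE 0.362, adjusted p = 7.2e-07), 10.3-fold in KFs (3.37, SE 0.356, adjusted p = 2.22e-06; 3.67 without KFs replicate 3) and 3.85-fold in TFs (1.95, SE 0.340, adjusted p = 0.000372). The rise was larger in heart than in tail cells by 1.74 on the log2 scale (SE 0.467, adjusted p = 0.0145). The kidney response exceeded that of tail cells by 1.42 (SE 0.466, adjusted p = 0.0624), which passed the threshold without KFs replicate 3 (1.74, adjusted p = 0.00212). Per kilobase of exon, the mean of *Col15a1* went from 6.97 to 89.9 CPM in heart and from 9.84 to 101 CPM in kidney cells. These means in HFs and KFs were the highest of the 10 genes there. In HFs the *Col15a1* libraries (50.5 to 126 CPM) overlapped those of *Pdgfrb* (81.4 to 94.7 CPM). In HFs replicate 3, *Col15a1* (50.5 CPM) was below *Dpt* (86.7 CPM) and *Pdgfrb* (81.4 CPM). Of 9 genes listed with *Col15a1* for parenchymal fibroblasts and basement membrane, 4 were higher and 1 lower in HFs, 2 higher and 0 lower in KFs, and 6 higher and 0 lower in TFs. *Cxcl12*, a chemokine, rose by 3.44, 2.79 and 2.75 and *Lpl*, lipoprotein lipase, by 2.18, 1.42 and 2.58 on the log2 scale, and *Col4a1* rose by 1.46 in TFs (adjusted p = 1.42e-06), with -0.36 in HFs and -0.60 in KFs. The median of the list was -0.03, 0.48 and 1.46. The kidney counts were the same without KFs replicate 3, with *Cxcl12* at 3.25, *Lpl* at 1.66 and a median of 0.84.

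*Dpt* (ENSMUSG00000026574; chromosome 1, 164796644 to 164824266) encodes dermatopontin, a small matrix protein that binds decorin and collagen. It was 20.5, 17 and 22.1 CPM in HFc and 130, 142 and 149 CPM in HFs. In tail cells it was 2.70, 1.88 and 2.72 CPM in TFc and 32.2, 70.6 and 68.0 CPM in TFs. Kidney cells had 1.60, 0.524 and 1.03 CPM in KFc and 50.9, 9.84 and 4.69 CPM in KFs. Each transplanted group was above its control, and KFs had the widest spread, with replicate 1 far above the others. The rise of *Dpt* was 7.09-fold in heart cells (2.82 on the log2 scale, SE 0.603, adjusted p = 0.000951), 20.7-fold in kidney cells (4.37, SE 0.726, adjusted p = 0.000153) and 23.3-fold in tail cells (4.54, SE 0.685, adjusted p = 0.000106). Without KFs replicate 1 the kidney value was 2.80 and without KFs replicate 3 it was 4.81. The response of heart cells minus that of tail cells was -1.72 (SE 0.853, adjusted p = 0.163), and minus that of kidney cells -1.55 (SE 0.911, adjusted p = 0.237; -1.96 and adjusted p = 0.0475 without KFs replicate 3).

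*Pdgfra* (ENSMUSG00000029231; chromosome 5, 75152292 to 75198215) was 184, 175 and 176 CPM in HFc and 434, 486 and 655 CPM in HFs. In tail cells it was 124, 130 and 126 CPM in TFc and 483, 542 and 508 CPM in TFs. Kidney cells had 107, 108 and 111 CPM in KFc and 357, 295 and 77.8 CPM in KFs. KFs replicate 3 was thus below all KFc libraries, while the other transplanted libraries were above all cultured ones. The rise was 2.95-fold in HFs (log2 change of 1.56, SE 0.345, adjusted p = 0.00126), 4.02-fold in TFs (2.01, SE 0.350, adjusted p = 0.000364) and 2.24-fold in KFs (1.16, SE 0.342, adjusted p = 0.0106). Without KFs replicate 3 the kidney value was 1.54 (SE 0.127, adjusted p = 8.43e-08), without KFs replicate 1 it was 0.78 (adjusted p = 0.0693) and without KFs replicate 2 it was 0.96 (adjusted p = 0.0469), both short of the threshold, as was the fit on the 2 kidney groups alone (1.17, adjusted p = 0.121).

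*Pdgfrb* (ENSMUSG00000024620; on chromosome 18) changed less. It was 373, 402 and 396 CPM in HFc and 519, 499 and 446 CPM in HFs, 442, 455 and 431 CPM in KFc and 419, 464 and 183 CPM in KFs, and 298, 296 and 289 CPM in TFc and 308, 270 and 288 CPM in TFs. The log2 fold change was 0.32 (SE 0.218, adjusted p = 0.223) in HFs, -0.32 (SE 0.218, adjusted p = 0.245) in KFs and -0.03 (SE 0.218, adjusted p = 0.931) in TFs, and in kidney cells -0.05 without KFs replicate 3. The HFs libraries all lay above the HFc libraries, and the ranges overlapped in tail and kidney cells. Per kilobase of exon, the level of *Pdgfra* divided by that of *Pdgfrb* in the same library was 0.237 to 0.270 in HFc and 0.457 to 0.803 in HFs, 0.129 to 0.141 in KFc and 0.233 to 0.465 in KFs, and 0.228 to 0.240 in TFc and 0.858 to 1.10 in TFs. In every organ the ratio was higher in each transplanted than in each cultured library. By this measure *Pdgfra* came level with *Pdgfrb* in TFs. That level depends on the lengths used, 10024 bases for *Pdgfra* and 5478 for *Pdgfrb* over all annotated exons. Undivided, the TFs means were 511 and 289 CPM. Mural markers summed to 231 to 256 CPM in HFc, 195 to 248 CPM in HFs, 1310 to 1340 CPM in KFc, 139 to 253 CPM in KFs, 130 to 132 CPM in TFc and 94.5 to 119 CPM in TFs, and their part in the level of *Pdgfrb* was not tested.

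The ligands of these receptors went down where they changed, with an exception in heart cells. *Pdgfa*, which binds the alpha receptor, fell by 1.98 in HFs (SE 0.267, adjusted p = 1.56e-05) and by 1.19 in TFs (SE 0.264, adjusted p = 0.00235) on the log2 scale, and was at -0.55 in KFs (adjusted p = 0.0866). *Pdgfd*, which binds the beta receptor, fell by 1.03 in HFs (adjusted p = 0.00241) and by 1.49 in TFs (adjusted p = 0.000219), with -0.90 in KFs. *Pdgfc* rose by 1.43 in HFs (adjusted p = 0.00042), where it was 3.91 to 10.8 CPM, below the TFs libraries at 37.6 to 46.0 CPM. Of the 4 ligands, 1 was higher and 2 lower in HFs, 0 and 0 in KFs, and 0 and 2 in TFs. In KFs 2 were lower without KFs replicate 3, *Pdgfb* (-2.04, adjusted p = 0.000135) and *Pdgfd* (-1.33, adjusted p = 5.4e-05). *Pdgfb* was 1.63 to 24.8 CPM in the 3 KFs libraries.

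*Pi16* (ENSMUSG00000024011; chromosome 17, 29317680 to 29330593), a secreted peptidase inhibitor of adventitial fibroblasts, was low in culture. It was 1.60, 1.81 and 1.58 CPM in TFc and 20.9, 23.3 and 46.2 CPM in TFs. In heart cells it was 0.437, 0.575 and 0 CPM in HFc, from 12, 17 and 0 counts, and 2.16, 6.26 and 4.75 CPM in HFs. In kidney cells it was 3.84, 4.08 and 3.39 CPM in KFc and 3.31, 0.609 and 0.0401 CPM in KFs, the last from 1 count. TFs thus stood above all other groups, and KFs below KFc in all libraries. *Pi16* rose in TFs (log2 fold change 4.18, SE 0.795, adjusted p = 0.000743) and in HFs (3.60, SE 0.888, adjusted p = 0.00285), and its log2 fold change in KFs was -1.53 (SE 0.765, adjusted p = 0.111; -1.02 without KFs replicate 3, and -3.43 with adjusted p = 0.00192 without KFs replicate 1). The kidney response differed from that of tail cells by -5.71 (SE 1.09, adjusted p = 0.00376; -5.19 without KFs replicate 3 and -7.61 without KFs replicate 1), and the heart response exceeded that of kidney cells by 5.12 (SE 1.17, adjusted p = 0.0048; 4.63 without KFs replicate 3 and 7.02 without KFs replicate 1).

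*Ly6a* (ENSMUSG00000075602; chromosome 15, 74994877 to 74998031), a surface protein anchored in the membrane by a lipid, had its highest levels in tail cells. It was 108, 109 and 116 CPM in TFc and 86.7, 82.0 and 64.4 CPM in TFs. In heart cells it was 7.40, 6.33 and 7.81 CPM in HFc and 24.6, 32 and 48.6 CPM in HFs. Kidney cells had 24.5, 20.8 and 23.0 CPM in KFc and 21.4, 6.19 and 35.5 CPM in KFs. All HFs libraries were above all HFc libraries, all TFs libraries were below all TFc libraries, and kidney cells overlapped. *Ly6a* rose 4.91-fold in HFs (log2 change of 2.30, SE 0.418, adjusted p = 0.000252), with values of -0.12 (adjusted p = 0.819; -0.78 and adjusted p = 0.0745 without KFs replicate 3) in KFs and -0.52 (adjusted p = 0.305) in TFs. The heart response exceeded that of tail cells by 2.81 (SE 0.565, adjusted p = 0.00249) and that of kidney cells by 2.42 (SE 0.569, adjusted p = 0.00567; 3.10 without KFs replicate 3). *Ly6a* shares 6.33% of its 75-base stretches with 2 other genes, mostly *Ly6c1*, so the division of reads between these paralogs is uncertain. *Ly6c1* was 0.59 to 1.17 CPM in HFc, 1.62 to 7.82 CPM in HFs, 23.5 to 26.0 CPM in TFc and 11.8 to 14.4 CPM in TFs. Of 5 other genes of the Ly6 family tested, 3 were higher in HFs, 0 in KFs (with or without KFs replicate 3) and 1 in TFs and none was lower, and *Ly6e* rose by 2.11 in HFs (adjusted p = 9.89e-08) and 1.91 in TFs (adjusted p = 5.83e-07) on the log2 scale. Endothelial cells also express *Ly6a* and *Cd34*, and endothelial markers summed to 50.8 to 53.2 CPM in HFc and 82.8 to 93.1 CPM in HFs, to 43.9 to 47.9 CPM in KFc and 47.5 to 66.6 CPM in KFs, and to 50.4 to 57.6 CPM in TFc and 65.9 to 70.9 CPM in TFs. *Pecam1*, at 24.2 to 29.8 CPM in HFs and 27.1 to 28.3 CPM in HFc, made up a large share of these sums and passed the threshold in none of the 3 organs. Of 8 endothelial markers tested, 7 were higher and 0 lower in HFs (median log2 fold change 3.19), 4 higher and 1 lower in KFs (1.26; 4 and 0 without KFs replicate 3), and 3 higher and 0 lower in TFs (1.05). *Cdh5* was 1.45 to 3.43 CPM in HFs and 0.0364 to 0.338 CPM in HFc. *Cldn5* had too few counts to be tested, and the part of endothelial RNA in the rise of *Ly6a* was not tested.

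*Cd34* (ENSMUSG00000016494; chromosome 1, 194938819 to 194961279), a sialomucin of progenitors and adventitial fibroblasts, was set by organ more than by state. It was 54.6, 53.6 and 54.5 CPM in HFc and 33.1, 37.1 and 44.2 CPM in HFs, and 33.9, 42.4 and 36.5 CPM in TFc and 33.9, 36.2 and 41.5 CPM in TFs. In kidney cells it was 6.94, 5.24 and 7.44 CPM in KFc and 5.94, 2.12 and 18.6 CPM in KFs, where the highest value belonged to KFs replicate 3. Each kidney library was below every heart and tail library. The log2 fold change on transplantation was -0.51 (SE 0.436, adjusted p = 0.335) in heart, 0.43 (SE 0.464, adjusted p = 0.462) in kidney and -0.01 (SE 0.436, adjusted p = 0.985) in tail cells, and -0.77 (adjusted p = 0.0349) in kidney cells without KFs replicate 3, which is short of the fold limit.

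*Thy1* (ENSMUSG00000032011; chromosome 9, 44043384 to 44048579) was 128, 130 and 123 CPM in HFc and 44.5, 32 and 24.9 CPM in HFs, 242, 232 and 247 CPM in TFc and 195, 133 and 123 CPM in TFs, and 66.8, 65.1 and 70.9 CPM in KFc and 54.1, 77.5 and 29.5 CPM in KFs. The transplanted libraries of heart and tail were all below their controls and those of kidney overlapped. *Thy1* fell 3.76-fold in HFs (log2 change of -1.91, SE 0.274, adjusted p = 2.83e-05), and the values were -0.68 (SE 0.263, adjusted p = 0.0525) in TFs and -0.33 (SE 0.264, adjusted p = 0.316; -0.08 without KFs replicate 3) in KFs. The heart response was more negative than that of tail cells (response difference -1.23, SE 0.375, adjusted p = 0.0269) and than that of kidney cells (-1.58, SE 0.377, adjusted p = 0.00618; -1.82 without KFs replicate 3). The first of these was lost, with adjusted p of 0.0516 to 0.0883, without HFc replicate 1 or 2, HFs replicate 2 or 3, TFs replicate 1, or any TFc library. The methods of the study sort fibroblasts by CD90 in other experiments, and it is not clear from them whether the cells used here had been so sorted before culture, so the presence of *Thy1* in every group is no finding.

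*Dpp4* (ENSMUSG00000035000; chromosome 2, 62330073 to 62412231), a membrane peptidase, was near the floor. It was 0.328, 0.643 and 0.442 CPM in HFc and 0.902, 4.32 and 0.949 CPM in HFs. In kidney cells it was 0, 0.279 and 0.498 CPM in KFc and 2.06, 0.673 and 1.92 CPM in KFs. In tail cells it was 0.208, 0.196 and 0.395 CPM in TFc and 2.14, 1.05 and 1.61 CPM in TFs. Each transplanted library was above the controls of its organ, from 15 to 98 counts against 0 to 19. The log2 fold change was 2.11 (SE 0.802, adjusted p = 0.0346) in HFs, 2.54 (SE 0.832, adjusted p = 0.0196) in KFs and 2.58 (SE 0.843, adjusted p = 0.0243) in TFs. Without HFs replicate 2 the heart value was 1.01 (adjusted p = 0.305), and leaving out HFc replicate 1, 2 or 3, KFc replicate 2, KFs replicate 1, TFc replicate 1 or 2, or TFs replicate 1 or 3 also took the adjusted p of the organ concerned above 0.05, to at most 0.108. Without KFs replicate 3 the kidney value was 2.30 (adjusted p = 0.0377), without KFc replicate 3 it was 3.40, and in the fit on the 2 kidney groups alone 2.53 (adjusted p = 0.0958).

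*Dpp4* is also a peptidase of the proximal tubule brush border, in the organ that received the grafts. All 10 proximal tubule markers were higher in HFs and in TFs than in their controls, and 8 in KFs. They summed to 154, 1190 and 120 CPM in HFs, 129, 61.8 and 99.7 CPM in KFs and 333, 139 and 202 CPM in TFs, against 22.5 to 25.0 CPM in HFc, 103 to 112 CPM in KFc and 19.5 to 21.8 CPM in TFc. HFs replicate 2 had the highest sum and the highest *Dpp4*, and TFs replicate 1 the highest of both in tail cells. The KFc sum came mostly from *Lrp2*, at 92 to 99.2 CPM. *Slc34a1*, *Kap*, *Slc27a2*, *Miox* and *Pck1* were at 0 in KFc and present in every KFs library. They were at least 36-fold (*Miox*) to 81-fold (*Slc34a1*) higher in KFs against the floor. These 5 genes and *Dpp4* were all higher in each KFs library than in any KFc library. *Lrp2*, at 22.7 to 55.2 CPM in KFs, was lower in each KFs library than in any KFc library. So was *Aqp1*, at 7.18 to 9.25 CPM in KFc and 5.19 to 6.39 CPM in KFs. Of 5 other brush border peptidases tested, 5 were higher in HFs, 4 in KFs and 3 in TFs. *Anpep* rose by 3.54 in HFs (adjusted p = 1.04e-07) and 1.42 in KFs (adjusted p = 0.000438) on the log2 scale, and *Mme* by 2.32, 2.86 and 3.29 in heart, kidney and tail cells (adjusted p = 0.027, 0.00923 and 0.00523). The kidney values without KFs replicate 3 were 1.70 for *Anpep* and 0.21 for *Mme* (adjusted p = 0.677), and 4 of the 5 peptidases were higher. *Anpep* and *Mme* are also expressed by fibroblasts, and the part of tubule RNA in the rise of *Dpp4* was not tested.

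**Figure D4:**
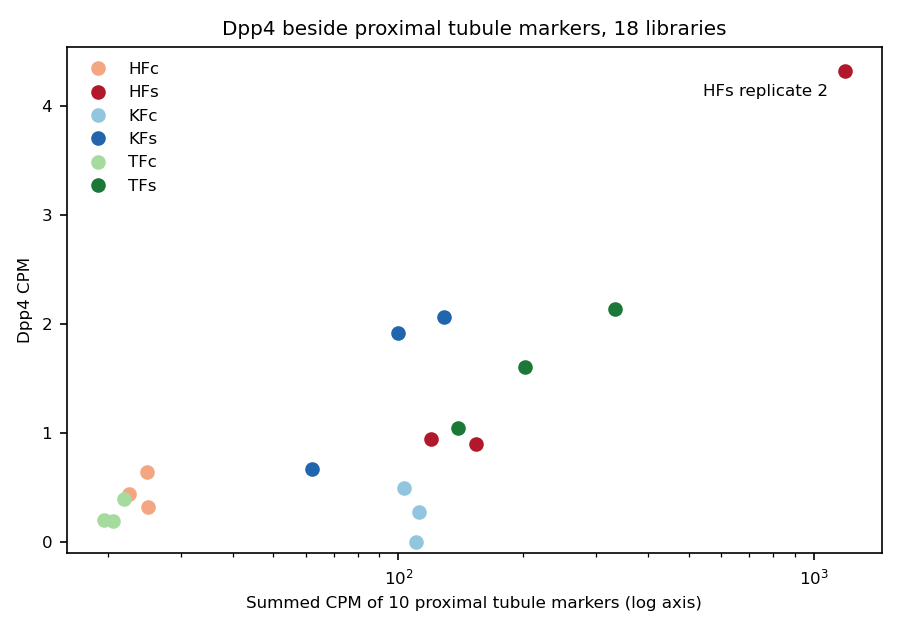
*Dpp4* level (CPM) against the summed level of 10 proximal tubule markers (CPM, log axis) in the 18 libraries, 1 point for each library, coloured by group. HFs replicate 2 lies at the upper right with 4.32 and 1190 CPM, and the KFs and KFc points overlap in the sum, which in KFc came mostly from *Lrp2* (92 to 99.2 CPM).

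Lists of genes that accompany the markers give the setting. Of 16 general fibroblast genes, 10 were higher and 1 lower in HFs, 9 and 1 in KFs, and 7 and 0 in TFs, with medians of 2.10, 1.65 and 0.86. Leaving out KFs replicate 3 gave kidney counts of 10 and 0 (median 1.99), with *Dcn* at 5.05, *Fap* at 4.04, *Lum* at 7.64 and *Ddr2* at -0.80. *Dcn* rose by 4.80, 4.57 and 3.90, *Fap* by 3.77, 3.73 and 4.60 and *Lum* by 7.04, 7.13 and 3.72 on the log2 scale. *Lum* was near the floor in 2 cultured groups, at 0.182 to 0.786 CPM in HFc and 0.0349 to 0.224 CPM in KFc, so the size of its rise there is uncertain. It was 1.28 to 42.6 CPM in KFs. *Dcn* and *Lum* encode small proteoglycans and *Fap* a surface protease. The member that was lower in HFs was *Pdpn*, with -1.15 (adjusted p = 0.000202), and that in KFs *Ddr2*, a collagen receptor, with -1.02 (adjusted p = 0.000459). Of 13 genes of adventitial and fascial progenitors, 8 were higher and 0 lower in HFs, 1 higher and 2 lower in KFs, and 3 higher and 2 lower in TFs, with medians of 1.24, -0.51 and 0.23. In kidney cells without KFs replicate 3 the counts were 1 and 3 (median -0.40), with *Has1* at 3.44, *Ackr3* at -1.08, *Igfbp6* at -2.80 and *Sema3c* at -2.07. *Has1*, a hyaluronan synthase, rose by 2.72, 3.38 and 4.36 (adjusted p = 0.0164, 0.00318 and 0.0024). *Clec3b* rose by 3.73 in HFs and 2.32 in TFs. *Has1* was low in culture, at 0.0338 to 0.364 CPM in HFc, 0.233 to 1.04 CPM in KFc and 0 to 0.196 CPM in TFc. *Clec3b* was also low, at 0.146 to 0.639 CPM in HFc and 0.386 to 0.57 CPM in TFc. *Ackr3*, a scavenging chemokine receptor, rose by 3.29 in HFs and fell by 1.33 in KFs (adjusted p = 0.00148). *Igfbp6* fell by 3.04 in KFs (adjusted p = 4.23e-07). The response of this list differed between heart and kidney cells in 8 of 13 genes, all more positive in heart, where 10.7% of all genes tested were called in that direction, and in 9 without KFs replicate 3. *Ly6c1* stands in this list and in that of the Ly6 family.

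Between organs the comparisons share groups (TFc, for example, serves HFc and KFc), so their values are given side by side. In culture, 3 markers differed between HFc and TFc, 1 higher and 2 lower, where 20.9% and 21% of all genes passed the adjusted p threshold of 0.05 (41.9% in all). The count was 9 in a fit of these 2 groups alone, where 62.4% of all genes were called. It was 7 without KFs replicate 3, a library of neither group, where 48.6% of all genes were called. *Ly6a* was 15.5-fold lower in HFc (log2 fold change -3.95, SE 0.440, adjusted p = 3.19e-06), *Thy1* 1.89-fold lower (-0.92, SE 0.264, adjusted p = 0.0107) and *Dpt* 8.11-fold higher (3.02, SE 0.660, adjusted p = 0.00169). Between KFc and TFc 6 differed, 2 higher and 4 lower, against 17.8% and 18.5% of all genes (36.4% in all). *Cd34* was 5.74-fold lower in KFc (-2.52, SE 0.470, adjusted p = 0.000653), *Ly6a* 4.87-fold, *Thy1* 3.55-fold and *S100a4* 2.65-fold lower, and *Col15a1* was 2.15-fold higher (1.10, SE 0.333, adjusted p = 0.0172). *Pdgfrb* was higher by 0.59 (SE 0.219, adjusted p = 0.0463), a call lost when any 1 library outside KFs was left out, and *Col15a1* was lost without KFc replicate 2 or TFc replicate 2 (adjusted p = 0.0505 and 0.0609). Between HFc and KFc 6 differed, 4 higher and 2 lower, against 15.1% and 14% of all genes (29.2% in all). *Dpt* was 18.9-fold (adjusted p = 0.00039), *Cd34* 8.29-fold (adjusted p = 0.000177), *S100a4* 3.52-fold and *Thy1* 1.88-fold higher in HFc, and *Pi16* (10.3-fold, adjusted p = 0.00926) and *Ly6a* (3.18-fold) were lower. The call of *Thy1* was lost without KFc replicate 1 or 2 (adjusted p = 0.0536 and 0.0577).

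After transplantation, 6 markers differed between HFs and TFs, 2 higher and 4 lower, where 10.3% and 12.7% of all genes were called (23.1% in all). *Col15a1* was 5.08-fold higher (2.35, SE 0.341, adjusted p = 0.000128) and *Thy1* 4.45-fold (adjusted p = 3.76e-05), *S100a4* 3.82-fold (adjusted p = 0.000218) and *Pi16* 6.80-fold (adjusted p = 0.0126) lower in HFs. *Pdgfrb* was higher by 0.76 (adjusted p = 0.0203) and *Ly6a* lower by 2.21-fold (adjusted p = 0.0457), and without HFs replicate 1 or TFs replicate 3 only 3 of the 6 calls were made, with *Pdgfrb*, *Ly6a* and *Pi16* missing. *Pdgfrb* and *Ly6a* were also lost without HFs replicate 2 or TFs replicate 2, and *Ly6a* without TFs replicate 1 and with DESeq2's size factors (adjusted p = 0.0537). Between KFs and TFs 7 differed, 1 higher and 6 lower, against 15.3% and 13.8% of all genes (29.1% in all). *S100a4* was 27.2-fold (adjusted p = 1.83e-07), *Pi16* 23.0-fold (adjusted p = 0.000714), *Cd34* 4.22-fold (adjusted p = 0.00341), *Ly6a* 3.71-fold, *Thy1* 2.79-fold and *Pdgfra* 2.10-fold (adjusted p = 0.0274) lower in KFs, and *Col15a1* was 5.74-fold higher (adjusted p = 7.04e-05). Between HFs and KFs 4 differed, all higher in HFs, against 14.2% of all genes higher and 19% lower (33.2% in all). They were *S100a4* (7.12-fold, adjusted p = 1.66e-05), *Dpt* (6.46-fold, adjusted p = 0.00301), *Cd34* (4.32-fold, adjusted p = 0.00271) and *Pdgfra* (2.16-fold, adjusted p = 0.0205). Without KFs replicate 3, 8 differed between KFs and TFs, where 35.1% of all genes were called, and 6 between HFs and KFs, where 38.8% were. *Cd34* in KFs was then -3.24 relative to TFs and 3.29 lower than in HFs on the log2 scale. Relative to TFs, *S100a4* was then -4.34, *Pi16* -3.98, *Ly6a* -2.51, *Thy1* -1.18, *Pdgfra* -0.65, *Col15a1* 2.86 and *Pdgfrb* 0.62. HFs relative to KFs was 2.42 for *S100a4*, 2.23 for *Dpt*, 1.38 for *Ly6a*, 0.70 for *Pdgfra* and -0.96 for *Thy1*. Without KFs replicate 1, *Pi16* was -6.43 and *Dpt* -2.96 (adjusted p = 4.21e-05) relative to TFs, and *Dpt* was 4.26 and *Pi16* 3.66 (adjusted p = 0.00174) higher in HFs than in KFs. *Pdgfra* was lost between KFs and TFs without TFs replicate 2 or 3 and between HFs and KFs without HFs replicate 3. Fitted on the 2 groups alone, 2 of the 7 and 1 of the 4 calls were made, where 7.47% and 5.75% of all genes were called.

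**Figure D5:**
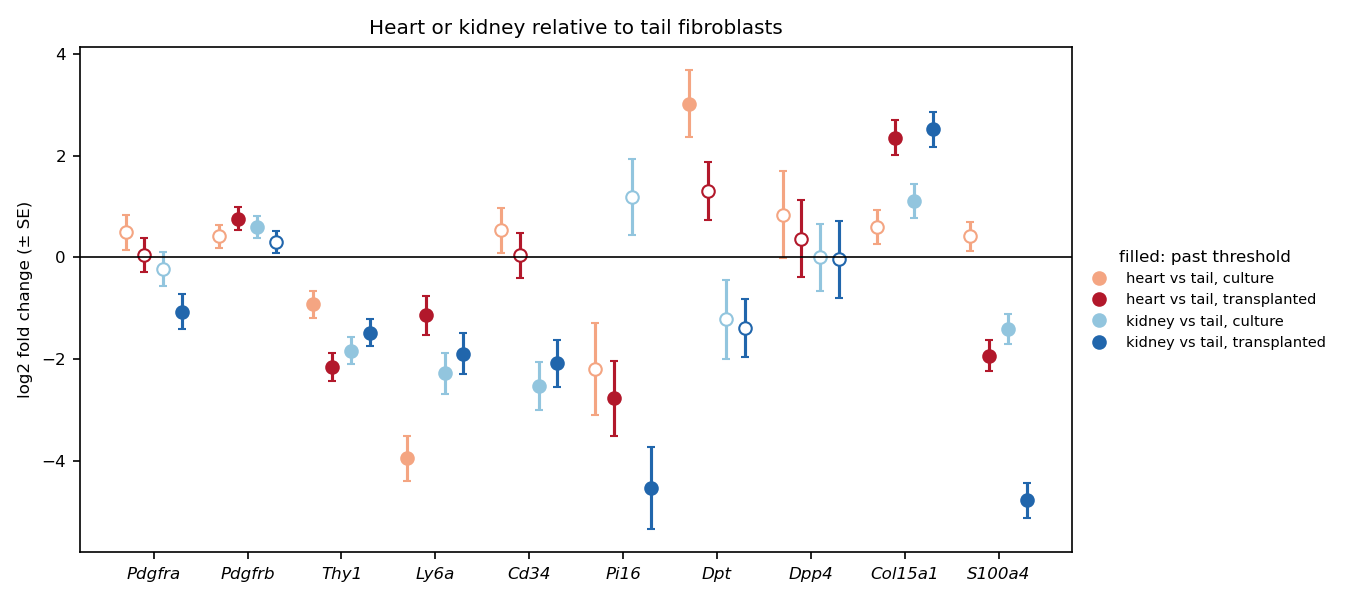
Log2 fold change of heart and kidney relative to tail fibroblasts in culture and after transplantation, with bars of 1 standard error (3 against 3 libraries) and filled points past the adjusted p threshold. *Thy1* and *Ly6a* are filled and below 0 in all 4 comparisons, and *Col15a1* is filled and above 0 in 3 of 4.

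Responses to transplantation differed between heart and tail cells in 4 markers (*Thy1*, *Ly6a*, *Col15a1*, *S100a4*), where 10.1% of all genes had a more positive and 12.7% a more negative response in heart (22.8% in all), between kidney and tail cells in 2 (*Pi16*, *S100a4*) against 4.99% more positive and 6.07% more negative (11.1% in all), and between heart and kidney cells in 3 (*Thy1*, *Ly6a*, *Pi16*) against 10.7% and 15.5% (26.2% in all). These 3 contrasts share their groups with one another and with the comparisons above. *Pdgfra*, *Pdgfrb*, *Cd34*, *Dpt* and *Dpp4* passed in none of the 3 in the fit of all 18 libraries. Without KFs replicate 3, *Pdgfrb* passed in heart minus tail (0.39, adjusted p = 0.00655) and heart minus kidney cells (0.38, adjusted p = 0.00877). *Dpt* then passed in heart minus kidney cells (-1.96, adjusted p = 0.0475). Without KFs replicate 2, *Pdgfrb* (0.94, adjusted p = 0.0353) and *Cd34* (-1.35, adjusted p = 0.0284) passed in heart minus kidney cells.

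Compared per kilobase of exon, *S100a4* was the highest of the 10 genes in all cultured groups, with a mean of 1040 CPM in HFc, 784 CPM in TFc and 295 CPM in KFc, and it was still the highest in TFs at 166 CPM. *Col15a1* took that place in HFs and KFs, at 89.9 and 101 CPM per kilobase, next to *Pdgfrb* at 89.1 and 64.9 CPM. *Dpp4* stayed at or under 0.325 CPM per kilobase in each group mean.

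For each marker the genes whose level was most like it were found as the highest Pearson's r of log2(CPM + 1) over the 18 libraries, which share organs, states and sequencing. They were *Ifnar2* (0.957) and *Mmp3* (0.952) for *Pdgfra*, *Mrc1* and *Elmo1* (0.901 each) for *Pdgfrb*, *Pcyt2* (0.918) and *Pdpn* (0.910) for *Thy1*, and *Ly6i* (0.975) and *Megf6* (0.948) for *Ly6a*. For *Cd34* they were *Phactr2* (0.950) and *Abca8b* (0.937), for *Pi16* *Aqp1* (0.919) and *Mest* (0.915), and for *Dpt* *Serpina3n* (0.971) and *Dclk1* (0.955). For *Dpp4* they were *Cyp2j5* (0.940) and *Qprt* (0.935), for *Col15a1* *Adam12* and *Enpp3* (0.973 each), and for *S100a4* *Igfbp2* (0.971) and *Ahnak* (0.958). *Cyp2j5* and *Aqp1* are among the proximal tubule markers above, and *Ly6i* is a paralog of *Ly6a*. Without KFs replicate 3, over 17 libraries, the nearest gene changed to *Serpina3i* (0.990) for *Pdgfra*, *St6gal1* (0.960) for *Pdgfrb*, *Prpf8* (0.947) for *Thy1*, *Sgcb* (0.969) for *Cd34*, *Slc12a5* (0.932) for *Pi16*, *Dclk1* (0.978) for *Dpt*, *Sgk2* (0.955) for *Dpp4* and *Mmp14* (0.978) for *Col15a1*, and stayed *Ly6i* for *Ly6a* and *Igfbp2* for *S100a4*. Among the markers themselves, *Pdgfra* and *Dpt* had the highest r (0.909) and *Col15a1* and *S100a4* the lowest (-0.899).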

How the data were processed

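The authors trimmed reads (75 bp, single-end, stranded library kit) for quality and, per their methods, ran RSEM with Bowtie2 on GRCm38 with strand-specific counting, and deposited expected counts per gene as whole numbers without normalization. The deposited labels name mm9 in place of GRCm38, and the annotation release is not given in the sources used here. The table holds no coordinates. Symbols and positions were taken from GENCODE mouse release 21 (GRCm38), which matched 37607 of 38924 identifiers and lacked 1317. Groups were read from the sample titles.

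Counts, which needed no rounding, were fitted by the quasi-likelihood method of edgeR 4.0.16 (R 4.3.3; filterByExpr, TMM, estimateDisp, glmQLFit, glmQLFTest) over all 18 libraries with a mean for each group, and p-values were adjusted over all 16577 genes tested. Response contrasts are interaction terms. Standard errors are the log2 fold change divided by the square root of F. Fits were tested on simulated data, where small changes were found less often than large ones, so a gene that was not called may still have changed. Totals of 17927838 to 32245168 counts set the floors, which cover counting error only, since no molecular identifiers are named. Replicates of a group differed by more than sampling noise, and all were kept.

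The 10 genes, the lists beside them and the tests were chosen with earlier results of these data known. All 10 are named in every comparison, list genes by count with at most 4 examples, and the nearest genes by correlation. *Pdpn*, *Ddr2*, *Pdgfb*, *Sema3c*, *S100a8*, *S100a9*, *Dsp* and the 5 tubule genes at 0 in KFc were named after their values were seen. Alternatives were DESeq2 1.42.0, its size factors, library size alone, no filter, a mean of at least 10 counts, a replicate block, only the groups compared, other thresholds, and each library left out. Figures used Python 3.11.15 and matplotlib 3.10.9.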

Additional observations from a re-analysis of the deposited data

Results flagged for a closer look

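Differences in the response to transplantation between organs were picked out by the interaction test (edgeR's quasi-likelihood test, adjusted p under 0.05 over 16577 genes), given as the difference of log2 fold changes. Heart minus tail cells gave 2.81 for *Ly6a*, 1.74 for *Col15a1*, -1.23 for *Thy1* and -2.34 for *S100a4*. Kidney minus tail cells gave -5.71 for *Pi16* and -3.36 for *S100a4*. Heart minus kidney cells gave 5.12 for *Pi16*, 2.42 for *Ly6a* and -1.58 for *Thy1*. These 3 contrasts share groups. Groups of 3 libraries are too small for the test of single outlying libraries.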

How the results depend on the processing

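No marker changed direction where it was called, in any comparison and under any of the alternatives run. The count of markers called moved by over 1.5 times in these cases. In the fit of only the groups compared it was 3 for KFs relative to KFc, 9 for HFc relative to TFc, 2 for KFs relative to TFs, 1 for HFs relative to KFs and 7 for the response of heart minus tail cells. In these fits 18.6%, 62.4%, 7.47%, 5.75% and 35.5% of all genes were called. At an adjusted p under 0.01 it was 3 for KFs relative to KFc, 3 for HFs relative to TFs and 2 for the response of heart minus tail cells. Leaving out 1 library at a time gave 7 to 8 for HFs relative to HFc, 4 to 5 for KFs relative to KFc, 5 to 6 for TFs relative to TFc, 3 to 7 for HFc relative to TFc, 4 to 7 for KFc relative to TFc, 5 to 8 for HFc relative to KFc, 3 to 7 for HFs relative to TFs, 6 to 8 for KFs relative to TFs and 3 to 6 for HFs relative to KFs, and 3 to 5, 2 to 3 and 3 to 6 for the responses of heart minus tail, kidney minus tail and heart minus kidney cells. The cause was not tested. Without KFs replicate 3 the coefficient of variation shared by all groups was 0.17 in place of 0.24. HFc relative to TFc, which does not hold that library, then had 7, with 48.6% of all genes called. Without KFs replicate 2 the response of heart minus kidney cells had 5 and without KFs replicate 3 it had 6, the latter with 35.2% of all genes called. Library size alone moved the median of all genes to -0.25 in HFs relative to TFs and to -0.25 in HFs relative to KFs, and changed the call of no marker there except *Thy1* in HFs relative to KFs, which passed. With it, 19.6% in place of 44.8% of the genes called were higher in HFs relative to TFs, 23% in place of 42.8% in HFs relative to KFs, 35.5% in place of 49.9% in HFc relative to TFc and 40.6% in place of 52% in HFc relative to KFc. Correlations of deviations between same-numbered libraries lay between -0.139 and 0.079. The same-numbered library was the closest for 3 of 3 HFc libraries among those of KFc (0.012 to 0.027), and for 0 of 3 TFs libraries among those of TFc. With 3 libraries in a group this cannot tell whether replicate numbers pair the libraries. With the replicate block, 119 of 120 values kept their side of the threshold and *Dpp4* in HFs relative to HFc missed the threshold (2.08, adjusted p = 0.0517).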
